A study of Mus musculus with 20 samples.

Results

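RNA from mouse brain was compared between J17a, a line whose code names an exon form of JNK1, and J1 lf/lf, a line whose code names the same kinase without an exon form. The 6 libraries of these groups, 3 each, were taken by their titles from a series of 20 poly(A)-enriched libraries in 7 genotype groups. The other 14 libraries, from Wild type, J2 lf/lf, J17b, J27a and J27b brains, entered the fit and are quoted where they help to place a value. All are labelled strain C57/Bl6J, and the series describes control mice and mice lacking single isoforms, kept on a normal diet, in which exon usage was to be examined. The codes are not spelled out, it is unstated whether J17a mice lack or retain the 7a form, and no age or sex is listed, so both groups are called by their labels. Separate animals per library are not stated either, so p-values measure the spread between these samples, which may be technical.

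JNK1, JNK2 and JNK3, the products of Mapk8, Mapk9 and Mapk10, are kinases that respond to stress. They are switched on by the kinases MKK4 and MKK7 and phosphorylate transcription factors of the AP-1 family such as c-Jun and ATF2. In brain they also act on microtubule proteins and are held on scaffold proteins. Dual-specificity phosphatases switch them off. Transcripts of Mapk8 carry either exon of a mutually exclusive pair in the kinase domain.

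This pair is shown because the exon form is what distinguishes the J17a code from the J1 lf/lf code. In GENCODE mouse release 21 (mm10, minus strand) the exon that comes first in the transcript lies at chr14:33390673-33390744 and is used by Mapk8-204 and Mapk8-205, and the one that follows lies at chr14:33390242-33390313 and is used by Mapk8-201 and Mapk8-203. Both have 72 bases, of which 27 differ, and capitals mark the differing bases.
first exon of the pair: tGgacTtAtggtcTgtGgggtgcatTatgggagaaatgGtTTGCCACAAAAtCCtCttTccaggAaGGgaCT
second exon of the pair: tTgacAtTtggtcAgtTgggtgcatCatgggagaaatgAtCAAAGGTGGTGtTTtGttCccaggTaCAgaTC
The labels do not say which of the pair the code 7a stands for. The deposited counts are per gene, so the use of either exon was not analysed here, and the gene totals below cannot show which form was made.

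The gene totals of the JNK kinases did not differ detectably between J17a and J1 lf/lf. Mapk8 (chromosome 14, 33377898 to 33447158, exonic counts over the whole gene) stood at 106, 116 and 106 CPM in the J17a libraries, against 122, 118 and 102 CPM in the J1 lf/lf libraries. CPM are counts scaled to a common library total with TMM factors. The groups overlapped, with a log2 fold change of J17a over J1 lf/lf of -0.06 (95% interval -0.25 to 0.12, edgeR adjusted p = 0.965). Mapk9 was at 296, 308 and 323 CPM in J17a, against 317, 325 and 308 CPM in J1 lf/lf. Its log2 fold change was -0.03, and the interval was wide, from -0.60 to 0.53, because the spread was estimated over all groups and the J2 lf/lf libraries were uneven for this gene, at 177, 171 and 58.1 CPM. Mapk10, the mainly neuronal JNK gene, was at 354, 404 and 383 CPM in J17a, against 376, 357 and 342 CPM in J1 lf/lf (log2 fold change 0.09, 95% interval -0.05 to 0.22).

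Across the 16063 genes tested, edgeR called 1, or 0.00623% of genes, at an adjusted p under 0.05. At an adjusted p under 0.1 there were 11, or 0.0685%. At an unadjusted p under 0.05 there were 1051, or 6.54%, of which 527 (3.28%) were higher and 524 (3.26%) lower in J17a. The 3 libraries of 1 group lay entirely above or below those of the other in 1908 genes, or 11.9%, with 976 (6.08%) higher and 932 (5.8%) lower in J17a. The median log2 fold change over all genes was -0.0021. The ranked genes named here had a mean level over all libraries of at least 1 on the log2 CPM scale and no overlap between the groups. The 12 largest differences and the 10 smallest p-values in each direction made up 39 genes, 21 higher and 18 lower in J17a. Since the absence of overlap was part of the choice, it is a description and no support.

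**Figure D1:**
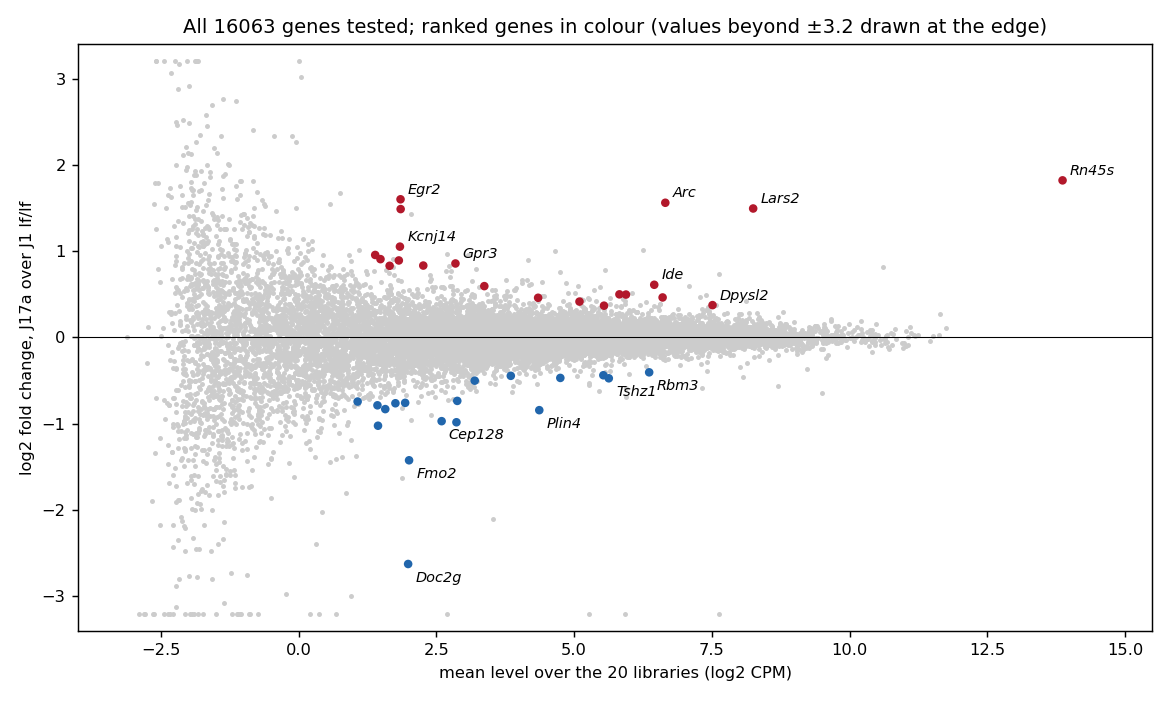
Log2 fold change of J17a over J1 lf/lf (vertical axis) against the mean level over the 20 libraries in log2 CPM (horizontal axis) for the 16063 genes tested. The 39 ranked genes are in red (higher in J17a) and blue (lower), and Ide at 0.61 is the 1 gene that passed the adjusted threshold, while Rn45s, Egr2, Arc and Lars2 lie higher with larger spread.

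Ide, the gene of the insulin-degrading metalloprotease that also cleaves amyloid beta, was the gene called. It stood at 79.1, 91.1 and 84.9 CPM in J17a, against 57.9, 54.2 and 55.1 CPM in J1 lf/lf. Every J17a library lay above every J1 lf/lf library, and every Wild type library above both groups. Wild type libraries had 113, 109 and 105 CPM, J27b libraries 106 to 112 CPM, J27a libraries 82.7 to 88.3 CPM, J2 lf/lf libraries 81.2 to 111 CPM and the J17b libraries 52.0 and 61.7 CPM. The J17a mean was 85.0 ± 6.01 CPM and the J1 lf/lf mean 55.7 ± 1.91 CPM (SD, n = 3 each), which is a log2 fold change of 0.61 (SE 0.09, 95% interval 0.41 to 0.81, edgeR adjusted p = 0.03). Per length, Ide had 38.8, 45.1 and 41.6 TPM in J17a, against 28.7, 26.7 and 26.1 TPM in J1 lf/lf. The adjusted p of Ide exceeded the threshold on leaving out J17a replicate 2 (0.201), J17a replicate 3 (0.155), J1 lf/lf replicate 2 (0.16) or J1 lf/lf replicate 3 (0.159). It also did so in both limma fits on TPM (0.189 and 0.165) and without the 3 libraries richest in pituitary transcripts (0.295). The same held with a term for a title number above 10, where the comparison rests on J17a replicate 1 (log2 fold change 0.50). The call of Ide was kept in 10 of 18 alternatives, and its log2 fold change lay between 0.50 and 0.66 in all 18.

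Btaf1, whose product removes TATA-binding protein from DNA, lies beside Ide on chromosome 19 (Btaf1 36926079 to 37012752, Ide 37268743 to 37337852, mm10). It stood at 62.0, 55.7 and 55.5 CPM in J17a, against 42.4, 43.5 and 36.7 CPM in J1 lf/lf and 67.6, 66.4 and 62.2 CPM in Wild type. The J17a values lay between the other 2 groups, as for Ide, with a log2 fold change of 0.50 (SE 0.10) over J1 lf/lf that missed the threshold (adjusted p = 0.0932). The genes between Btaf1 and Ide had smaller differences. Cpeb3, a regulator of translation at synapses, had 126, 120 and 139 CPM in J17a, against 125, 130 and 118 CPM in J1 lf/lf. March5, a mitochondrial ubiquitin ligase, had 87.8, 89.1 and 86.9 CPM in J17a, against 94.4, 92.0 and 89.8 CPM in J1 lf/lf (log2 fold change -0.07). Cpeb3 overlapped between the groups, and March5 was lower in each J17a library than in any J1 lf/lf library, without a call. Of the 79 other tested genes within 5 Mb of Ide, 8 had an unadjusted p under 0.05, or 10.13%, beside 6.54% of all genes. Of these 8, 3 were higher in J17a, Btaf1 among them, and 5 lower, among them Ubtd1 of the ranking. The median log2 fold change of the window was -0.04. Around Mapk8 on chromosome 14, 7 of 71 genes had an unadjusted p under 0.05, or 9.86%, with 4 higher and 3 lower. No gene in either window apart from Ide was called.

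Further genes of the ranking with small p-values that were higher in J17a missed the threshold. Trib2, a pseudokinase that directs proteins to a ubiquitin ligase, had 51.7, 48.8 and 55.1 CPM in J17a, against 40.8, 42.3 and 37.4 CPM in J1 lf/lf (log2 fold change 0.37, SE 0.07, adjusted p = 0.0923). Its relative Trib1 had 22.6, 22.1 and 26.4 CPM in J17a, against 16.6, 16.9 and 18.3 CPM in J1 lf/lf. Irf2bp2, a transcriptional corepressor, had 72.6, 68.3 and 61.2 CPM in J17a, against 45.7, 45.3 and 52.4 CPM in J1 lf/lf. All of these groups were separate, with log2 fold changes from 0.37 for Trib2 to 0.50 for Irf2bp2. Arid5b, a DNA-binding partner of a histone demethylase, had 35.5, 39.4 and 37.5 CPM in J17a, against 29.6, 28.2 and 26.5 CPM in J1 lf/lf. Here the 3 J1 lf/lf libraries were the lowest of the series, since the other 14 began at 31.8 CPM. Dpysl2, the gene of the tubulin-binding axon growth protein CRMP2, had 173, 217 and 206 CPM in J17a, against 145, 160 and 154 CPM in J1 lf/lf (log2 fold change 0.37, adjusted p = 0.108).

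Among the lower genes, Tshz1, a zinc finger transcription factor needed by olfactory bulb interneurons, had the smallest p-value. It had 46.3, 42.4 and 46.9 CPM in J17a, against 55.8, 70.7 and 61.7 CPM in J1 lf/lf (log2 fold change -0.47, SE 0.08, adjusted p = 0.0721). The 3 J1 lf/lf values exceeded every other library of the series, whose highest was 51.0 CPM. Ephx1, microsomal epoxide hydrolase, had 24.8, 23.6 and 22.3 CPM in J17a, against 32.1, 32.5 and 33.2 CPM in J1 lf/lf (log2 fold change -0.47, adjusted p = 0.0932), and the J1 lf/lf libraries again lay above the other 14, which reached 31.7 CPM. Cep128, a protein of centriole appendages, had 5.65, 4.83 and 5.18 CPM in J17a, against 10.4, 7.95 and 12.5 CPM in J1 lf/lf. Its log2 fold change was -0.97 (SE 0.19, adjusted p = 0.0923), and Wild type, at 5.43 to 5.97 CPM, lay near J17a. Over the 39 ranked genes the Wild type mean was nearer to J17a in 25 and nearer to J1 lf/lf in 14. J1 lf/lf lay outside the range of the other 14 libraries in 3 of the 39 (Arid5b, Tshz1 and Ephx1), and J17a in 0. The same counts were not taken over all genes, and the 39 were chosen for their separation. The counts therefore describe these genes only and do not show which line departs from Wild type.

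**Figure D2:**
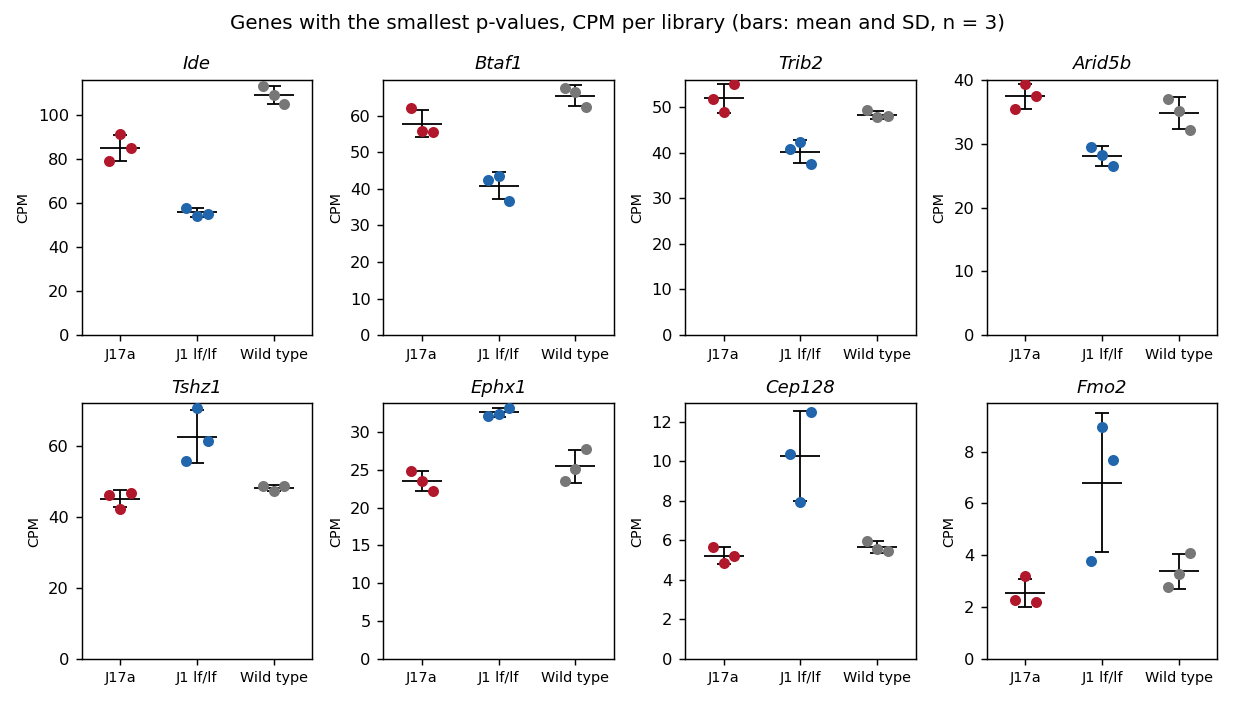
CPM per library (vertical axis, from 0) of 8 genes with small p-values in J17a (red), J1 lf/lf (blue) and Wild type (grey), 1 point per library, with bars for the mean and SD of 3 libraries. Ide and Btaf1 in J17a lie between J1 lf/lf and Wild type, whereas Tshz1, Ephx1 and Cep128 in J17a lie near Wild type and below J1 lf/lf.

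Fmo2, a flavin monooxygenase, and Doc2g, of the double C2 family and abundant in olfactory bulb mitral cells, had larger differences that the J1 lf/lf libraries did not share evenly. Fmo2 had 2.26, 3.18 and 2.196 CPM in J17a, against 3.79, 8.95 and 7.66 CPM in J1 lf/lf (log2 fold change -1.42, SE 0.27, adjusted p = 0.0923). Doc2g had 2.89, 1.71 and 1.72 CPM in J17a, against 3.24, 21.1 and 14.5 CPM in J1 lf/lf (log2 fold change -2.63, SE 0.46, adjusted p = 0.0904). In J1 lf/lf replicate 1 Doc2g was barely above J17a, and Fmo2 was closest to J17a in the same library. In bulk brain RNA, fewer cells of a type and less RNA per cell cannot be told apart. The cold-inducible RNA-binding proteins were both lower in J17a. Rbm3 had 66.5, 78.4 and 62.4 CPM in J17a, against 98.3, 81.5 and 94.9 CPM in J1 lf/lf, and Cirbp 40.1, 37.2 and 36.9 CPM in J17a, against 45.3, 49.5 and 60.1 CPM in J1 lf/lf, with log2 fold changes of -0.40 and -0.44 (adjusted p = 0.266 and 0.297). Shisa3, which falls below the level required for ranking and was chosen after its values were seen, was the other gene with an adjusted p under 0.1.

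Immediate early genes, which neurons transcribe within minutes of activity without new protein synthesis, gave the highest median of any list described here. Of 16 tested, 15 had a positive log2 fold change, and the median was 0.53, beside -0.0021 for all genes. An unadjusted p under 0.05 was reached by 7, all higher in J17a, and 8 did not overlap between groups, beside 3.28% and 6.08% of all genes in that direction. None of the 16 was called over all genes. Arc, a synaptic capsid-like protein that moves glutamate receptors from the surface, had 139, 137 and 175 CPM in J17a, against 45.3, 48.1 and 59.4 CPM in J1 lf/lf and 88.3, 121 and 66.0 CPM in Wild type. The lowest J17a value was over the highest J1 lf/lf value, and Wild type lay between, with a log2 fold change of J17a over J1 lf/lf of 1.56 (SE 0.37, adjusted p = 0.334). Over the other 14 libraries Arc ran from 46.3 to 208.5 CPM. J2 lf/lf had 124, 136 and 208.5 CPM, and J27a had 65.6, 79.9 and 177.5 CPM. The whole list summed to 951, 774 and 1027 CPM in J17a, against 521, 545 and 615.5 CPM in J1 lf/lf. Its sum over the other 14 ran from 493 to 1182 CPM. Egr2, a zinc finger transcription factor, had 5.38, 4.69 and 6.38 CPM in J17a, against 1.29, 1.91 and 2.19 CPM in J1 lf/lf (log2 fold change 1.60, SE 0.41). Egr2 ran from 1.35 to 6.75 CPM over the other 14 libraries. Egr1, the best known of this family, had 252, 217 and 271 CPM in J17a, against 138, 138 and 166 CPM in J1 lf/lf (log2 fold change 0.74). Nr4a1, an orphan nuclear receptor, had 62.5, 44.2 and 71.6 CPM in J17a, against 32.0, 36.6 and 35.3 CPM in J1 lf/lf. These 4 genes were separate between the groups, and J17a replicate 2 was the lowest J17a library in each.

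The members of the list were not alike. Fos itself had 24.0, 16.3 and 26.4 CPM in J17a, against 7.26, 9.15 and 19.5 CPM in J1 lf/lf, so that J1 lf/lf replicate 3 lay above J17a replicate 2. Npas4, the neuron-specific activity factor, had 8.81, 7.91 and 12.8 CPM in J17a, against 4.21, 5.46 and 11.7 CPM in J1 lf/lf. Btg2, an antiproliferative factor, was the 1 member with a negative value (-0.02), at 12.5, 9.34 and 12.2 CPM in J17a, against 8.42, 8.95 and 17.1 CPM in J1 lf/lf. In Fos, Npas4 and Btg2 alike the overlap came with J1 lf/lf replicate 3. The median of the list relative to the median library was 0.43, -0.05 and 0.55 in J17a, against -0.43, -0.28 and -0.21 in J1 lf/lf. With only the libraries of the 2 groups in the fit edgeR called 8 genes, all higher in J17a, among them Arc (adjusted p = 0.000385), Egr1 (0.008), Egr2 (0.0366), Dusp6 (0.046) and Ier5 (0.046). Over the 18 alternatives the adjusted p of Arc ran from 2.11e-06 to 0.812 and that of Egr2 from 0.024 to 0.812, each past the threshold in 3. How the mice were handled before the brains were taken is unstated, and its part in these values was not tested.

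**Figure D3:**
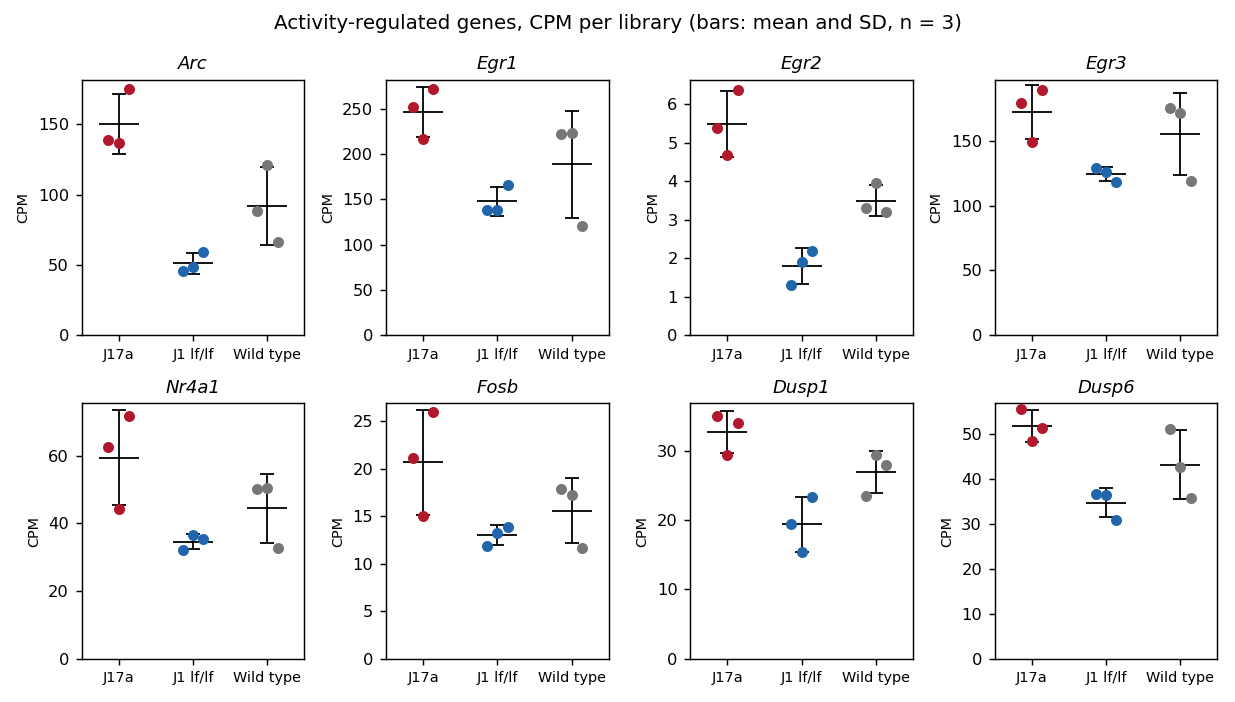
CPM per library (vertical axis, from 0) of 6 immediate early genes and of the phosphatases Dusp1 and Dusp6 in J17a (red), J1 lf/lf (blue) and Wild type (grey), 1 point per library, with bars for the mean and SD of 3 libraries. The J17a libraries lie above the J1 lf/lf libraries in each, and the Wild type libraries spread across the range between or overlap them. The genes shown were chosen with their values known. Members of the list whose groups overlap, such as Fos, Npas4 and Btg2, are not shown.

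Promoters of 4 activity-linked genes that stood higher in J17a are shown because such genes are known to be driven by cyclic AMP response elements (CRE) and serum response elements with a CArG box. They are RefSeq windows on GRCm38.p6, from 250 bases before to 50 bases after the start, written along the gene's strand, and capitals mark motifs found on either strand: the CRE TGACGTCA, its half-site TGACG, the AP-1 site TGANTCA and the CArG box. A full CRE holds half-sites of its own. Egr2 has several listed starts, and the window chosen, the first to hold both a CArG box and half-sites, is chr10:67537619-67537918 (plus strand). The others are Nr4a1 at chr15:101266596-101266895 (plus strand), Dusp1 at chr17:26508423-26508722 (minus strand) and Gpr3 at chr4:133212487-133212786 (minus strand).
Egr2: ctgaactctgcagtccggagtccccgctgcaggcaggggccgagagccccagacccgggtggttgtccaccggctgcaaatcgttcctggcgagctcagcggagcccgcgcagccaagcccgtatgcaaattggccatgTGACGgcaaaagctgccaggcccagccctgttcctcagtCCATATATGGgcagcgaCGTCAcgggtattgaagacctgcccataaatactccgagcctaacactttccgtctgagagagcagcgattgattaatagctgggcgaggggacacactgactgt
Nr4a1: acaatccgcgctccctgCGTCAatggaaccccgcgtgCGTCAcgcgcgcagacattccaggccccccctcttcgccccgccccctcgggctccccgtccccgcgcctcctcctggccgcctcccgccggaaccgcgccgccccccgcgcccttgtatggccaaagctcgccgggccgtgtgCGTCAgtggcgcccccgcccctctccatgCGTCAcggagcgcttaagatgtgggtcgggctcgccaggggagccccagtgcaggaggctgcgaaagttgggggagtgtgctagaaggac
Dusp1: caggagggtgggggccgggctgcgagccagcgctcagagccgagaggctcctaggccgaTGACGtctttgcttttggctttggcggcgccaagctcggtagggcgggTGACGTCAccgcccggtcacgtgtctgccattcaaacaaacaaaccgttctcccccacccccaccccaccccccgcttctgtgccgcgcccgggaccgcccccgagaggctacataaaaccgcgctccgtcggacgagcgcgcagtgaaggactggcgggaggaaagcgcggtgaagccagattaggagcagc
Gpr3: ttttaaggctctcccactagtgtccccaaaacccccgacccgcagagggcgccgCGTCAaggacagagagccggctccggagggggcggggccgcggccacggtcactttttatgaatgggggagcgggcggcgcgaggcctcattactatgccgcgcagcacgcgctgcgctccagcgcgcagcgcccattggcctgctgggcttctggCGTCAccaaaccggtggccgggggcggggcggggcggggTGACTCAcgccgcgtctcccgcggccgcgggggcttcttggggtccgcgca
Of all 32851 windows, 1.79% hold a full CRE, 20.8% a half-site, 7.81% an AP-1 site and 1.63% a CArG box. Of the 16 immediate early genes 12 have a window, and 11 of these hold a half-site in at least 1 window, beside 23.0% of all 27025 genes. A full CRE was found in 1 of the 12 (Btg2, beside 2.03% of all genes), a CArG box in 1 (Egr2, beside 1.81%) and an AP-1 site in 0 (beside 8.97%). A match is a run of letters and was not tested as a binding site here.

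Gpr3, a receptor that raises cyclic AMP without a ligand and was among the ranked genes, had 8.44, 11.3 and 10.46 CPM in J17a, against 5.23, 6.27 and 5.12 CPM in J1 lf/lf (log2 fold change 0.86, SE 0.18, adjusted p = 0.12). The other ranked genes with larger positive values were mostly at low levels. Kcnj14, an inward rectifier potassium channel, had 5.15, 5.203 and 6.55 CPM in J17a, against 2.82, 2.78 and 2.54 CPM in J1 lf/lf. Gch1, the first enzyme of tetrahydrobiopterin synthesis, had 2.29, 4.005 and 4.73 CPM in J17a, against 1.43, 2.18 and 2.23 CPM in J1 lf/lf. In Gch1 the gap between the groups was narrow, while in Kcnj14 every J17a value was clear of J1 lf/lf. Slc38a5, Rasl11a, Ano2 and Exoc3l4 had log2 fold changes of 0.83 to 0.96. Abca6, an ABC transporter, had 3.59, 4.76 and 5.25 CPM in J17a, against 3.56, 0.603 and 0.832 CPM in J1 lf/lf, so that the log2 fold change of 1.49 came from J1 lf/lf replicates 2 and 3.

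On the negative side of the ranking, Plin4, a lipid droplet coat protein that glucocorticoids induce, had 18.4, 11.7 and 11.9 CPM in J17a, against 26.3, 26.3 and 22.8 CPM in J1 lf/lf (log2 fold change -0.84). Slc1a5, a neutral amino acid transporter, had 1.93, 1.23 and 2.06 CPM in J17a, against 2.68, 3.55 and 4.38 CPM in J1 lf/lf. Psmb8, a subunit of the immunoproteasome, had 1.33, 1.71 and 2.68 CPM in J17a, against 2.77, 3.15 and 3.94 CPM in J1 lf/lf. In Psmb8 the groups nearly touched, and in Slc1a5 they were further apart. Ubtd1, a ubiquitin-domain protein, had 6.28, 4.07 and 5.25 CPM in J17a, against 7.68, 8.68 and 9.63 CPM in J1 lf/lf (log2 fold change -0.74, adjusted p = 0.12). Glp2r, Shpk, Lgr6 and Iqub had log2 fold changes of -0.83 to -0.74.

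Some of the phosphatases that act on MAP kinases are themselves induced by activity. Of the 13 listed, 3 had an unadjusted p under 0.05, all higher in J17a, beside 3.28% of all genes. The list had 9 positive members, 4 without overlap and all of those higher, beside 6.08% of all genes, and 0 calls. Its median of 0.10 was 0.018 without J1 lf/lf replicate 3 and 0.17 without J1 lf/lf replicate 1 or 2. Dusp1, which dephosphorylates JNK and p38, had 35.0, 29.3 and 33.96 CPM in J17a, against 19.4, 15.3 and 23.4 CPM in J1 lf/lf (log2 fold change 0.76, adjusted p = 0.54). Dusp6, which is specific for ERK, had 55.5, 48.5 and 51.3 CPM in J17a, against 36.5, 36.5 and 30.9 CPM in J1 lf/lf (log2 fold change 0.58, adjusted p = 0.369). Dusp14 followed at 0.31. Dusp16 and Dusp10, which act on JNK, had 20.5, 18.8 and 21.4 CPM and 13.5, 11.4 and 10.4 CPM in J17a, against 25.0, 22.4 and 19.4 CPM and 13.2, 12.2 and 12.3 CPM in J1 lf/lf, and their groups overlapped.

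Of the AP-1 and ATF factors 14 of 15 were tested, 9 were positive and the median was 0.09. Jun, the gene of the classical JNK substrate, had 56.2, 44.7 and 60.4 CPM in J17a, against 61.0, 58.9 and 59.6 CPM in J1 lf/lf, a log2 fold change of -0.15 with overlapping groups. Fosb had 21.1, 14.99 and 25.9 CPM in J17a, against 11.8, 13.2 and 13.9 CPM in J1 lf/lf. Fosl2 had 44.3, 44.8 and 49.1 CPM in J17a, against 31.4, 38.8 and 30.2 CPM in J1 lf/lf. Fosb (0.67) and Fosl2 (0.46) were the 2 members with an unadjusted p under 0.05, beside 3.28% of all genes higher in J17a, and neither was called. Atf2 was at 136, 145 and 138 CPM in J17a, against 134, 139 and 128 CPM in J1 lf/lf.

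The kinases upstream of JNK had small log2 fold changes, from -0.27 to 0.27. Of 18 members 13 were positive, and the median was 0.08. An unadjusted p under 0.05 was reached by 3, all higher in J17a. They were Taok1 (log2 fold change 0.27), Map3k13 (0.23), which encodes the axonal stress kinase LZK, and Map4k4 (0.21). Among all genes 3.28% were higher and 3.26% lower in J17a at that p. The groups did not overlap in 4 members, all higher in J17a, beside 6.08% of all genes. The scaffolds had a median of -0.0019, with 3 of 7 positive and 0 at an unadjusted p under 0.05. Cytoskeletal proteins and JNK substrates of neurons had 14 of 16 positive with a median of 0.08. Only 1, lower in J17a, had an unadjusted p under 0.05, beside 3.26% of all genes. That was Dcx, the microtubule protein of young neurons, at 17.4, 21.7 and 17.3 CPM in J17a, against 18.3, 30.4 and 26.1 CPM in J1 lf/lf, where replicates 2 and 3 were high. The 14 apoptosis genes had a median of 0.10. Hrk (0.25) and Mcl1 (0.14) were the 2 with an unadjusted p under 0.05, beside 3.28% of all genes higher in J17a. The 16 insulin and IGF signalling genes had a median of 0.08. Ide and the adaptor gene Irs1 (0.23) were the 2 with an unadjusted p under 0.05, beside 3.28% of all genes higher in J17a.

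**Figure D4:**
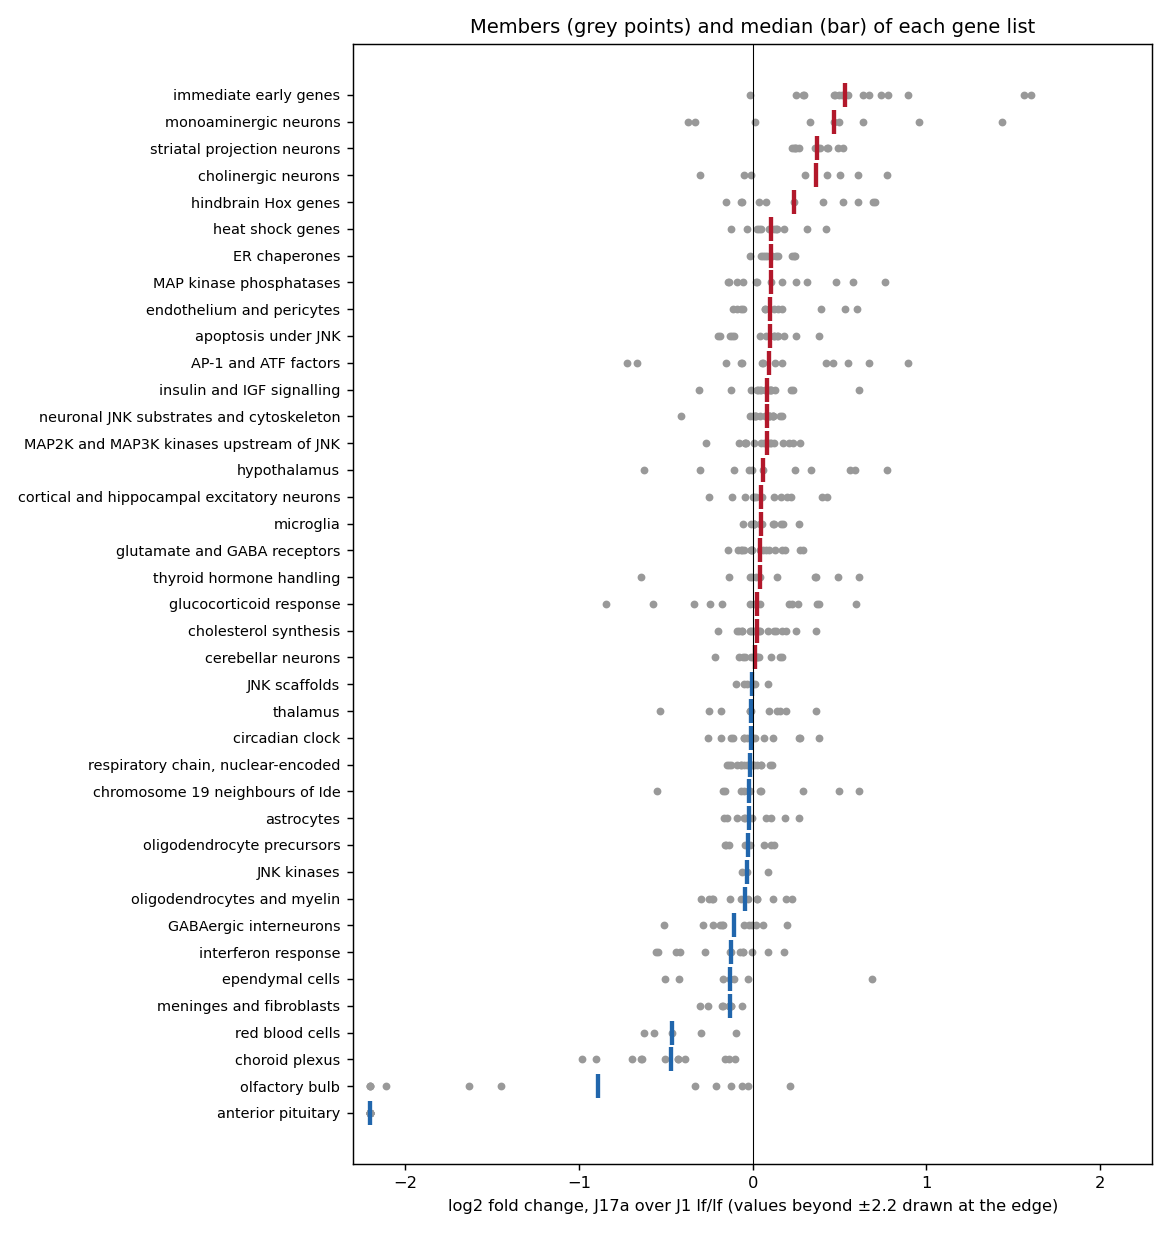
Log2 fold change of J17a over J1 lf/lf (horizontal axis) of the members of each gene list (grey points, 1 row per list) with the list median as a bar, red above 0 and blue below. Immediate early genes have the highest median, 0.53, and the olfactory bulb and anterior pituitary lists the lowest, -0.89 and -7.07, with -7.07 drawn at the edge.

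Hormone-related lists had separated members. Thyroid hormone genes had 3 of 11 members with an unadjusted p under 0.05, all higher in J17a, beside 3.28% of all genes. The groups did not overlap in 5 members, all higher in J17a, beside 6.08% of all genes, and the list median was 0.04. Dio2, the astrocyte deiodinase that makes active thyroid hormone, had 98.1, 104 and 89.3 CPM in J17a, against 85.1, 75.9 and 66.7 CPM in J1 lf/lf (log2 fold change 0.36, adjusted p = 0.334). Slco1c1, a transporter of thyroxine at the blood-brain barrier, had 50.3, 56.99 and 52.8 CPM in J17a, against 44.6, 41.5 and 38.1 CPM in J1 lf/lf. Slc16a10 was the remaining one, at 0.61. Glucocorticoid response genes had a median of 0.03 with members on both sides. Sgk1, the serum- and glucocorticoid-induced kinase, had 156, 150 and 115 CPM in J17a, against 78.1, 124 and 76.7 CPM in J1 lf/lf, and Plin4 was lower in J17a. Of its 14 members 5 were higher in J17a with an unadjusted p under 0.05 and 3 lower, beside 3.28% and 3.26% of all genes. Clock genes had a median of -0.01, with Bhlhe40 (0.28) and Arntl (0.27) positive and Per3 (-0.18) negative among the 4 at an unadjusted p under 0.05. Of the 16 clock genes 3 were higher in J17a at that p and 1 lower, beside the same 3.28% and 3.26%. Of 12 ER chaperones 11 were positive, and the median was 0.10. Hspa5 (0.24), the chaperone BiP, and Pdia4 (0.23) had an unadjusted p under 0.05, beside 3.28% of all genes higher in J17a. Without overlap 4 of the 12 were higher in J17a, beside 6.08% of all genes.

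Among glial and vascular lists, 3 of 12 myelin genes were lower in J17a without overlap, beside 5.8% of all genes, and all 3 had an unadjusted p under 0.05. Mobp had 251, 341 and 322 CPM in J17a, against 347, 357 and 367 CPM in J1 lf/lf. Mal had 233, 322 and 271 CPM in J17a, against 344, 335 and 338 CPM in J1 lf/lf, and Cldn11 had 134, 146 and 158 CPM in J17a, against 170, 170 and 173 CPM in J1 lf/lf. In each of the 3 the J1 lf/lf libraries were the highest of the series, whereas Mbp, the gene of myelin basic protein, overlapped, with a log2 fold change of 0.03. The list median was -0.05. Of the 12 endothelial and pericyte genes 8 were positive (median 0.10), and 3 were higher in J17a without overlap, beside 6.08% of all genes. All 3 are pericyte markers. Rgs5 had 31.8, 43.2 and 34.1 CPM in J17a, against 30.1, 21.1 and 20.98 CPM in J1 lf/lf, and Abcc9 had 13.99, 14.3 and 15.1 CPM in J17a, against 10.9, 8.41 and 10.9 CPM in J1 lf/lf. Kcnj8 had 3.89, 3.63 and 3.23 CPM in J17a, against 3.15, 2.85 and 2.19 CPM in J1 lf/lf, whereas the pericyte receptor gene Pdgfrb overlapped, with a log2 fold change of 0.07. The list median was 0.19 without J17a replicate 1 and 0.0090 without J17a replicate 2. Microglial and astrocyte lists had medians of 0.05 and -0.02.

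Markers of brain regions and neighbouring tissue showed which libraries were uneven. Anterior pituitary genes, which should be near 0 in brain, summed to 21.9, 0.616 and 1.58 CPM in J17a, against 4.72, 8.11 and 3151 CPM in J1 lf/lf. All 10 were negative, with a median log2 fold change of -7.07, and their high values stood in J1 lf/lf replicate 3, where Gh was at 2372 CPM. Without that library the median was 0.57. Olfactory bulb genes were negative in 11 of 12 (median -0.89), and their medians relative to the median library were 0.22, -0.06 and -0.27 in J17a, against -0.08, 1.49 and 0.78 in J1 lf/lf. The median log2 fold change was -0.06 without J1 lf/lf replicate 2 and -0.24 without J1 lf/lf replicate 3. Cdhr1, a mitral cell cadherin, had 10.3, 3.66 and 7.10 CPM in J17a, against 7.91, 54.3 and 27.9 CPM in J1 lf/lf, and Omp, the marker of olfactory sensory neurons, 0.498, 0.513 and 0.172 CPM in J17a, against 0.509, 4.69 and 4.16 CPM in J1 lf/lf. These genes were high in the same 2 J1 lf/lf libraries as Fmo2 and Doc2g, and Doc2g is itself a member of the olfactory bulb list. In J17b, Fmo2 was at 9.79 and 5.14 CPM and Doc2g at 2.12 and 2.54 CPM. The part of uneven olfactory bulb content in the lower Doc2g and Fmo2 of J17a, and in Tshz1 and Dcx, was not tested.

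All 12 choroid plexus genes were negative (median -0.47), with 3 non-overlapping, beside 5.8% of all genes, and Ttr, the transthyretin gene that leads this tissue, at 549, 622 and 460 CPM in J17a, against 808, 546 and 1189 CPM in J1 lf/lf. The list sum of J1 lf/lf replicate 3, 1387 CPM, was the highest of the 6, and the list median was -0.27 without that library. Red blood cell genes, summing to 872, 882 and 701 CPM in J17a, against 523, 1001 and 1960 CPM in J1 lf/lf, were also highest there, and their median of -0.46 was 0.11 without it. Slc4a5, the choroid plexus bicarbonate transporter, had 4.05, 5.78 and 5.35 CPM in J17a, against 9.99, 6.27 and 13.9 CPM in J1 lf/lf, and was ranked with a log2 fold change of -0.98. Striatal genes were positive in 12 of 12 (median 0.37) through J17a replicate 1. Their medians were 0.79, -0.10 and -0.07 in J17a, against 0.01, -0.31 and 0.14 in J1 lf/lf, and the list median was -0.03 without that library. Drd1, the dopamine D1 receptor gene, had 56.3, 32.2 and 27.3 CPM in J17a, against 28.9, 21.6 and 30.6 CPM in J1 lf/lf. Cerebellar genes were also highest in J17a replicate 1, at 0.60, against -0.38 and -0.46 in J17a replicates 2 and 3, and J1 lf/lf lay between, at 0.07, -0.01 and -0.03, and the median log2 fold change of 0.01 was -0.43 without J17a replicate 1. Hox genes, which mark the hindbrain, summed to 3.16, 11.6 and 46.9 CPM in J17a, against 39.5, 2.82 and 7.93 CPM in J1 lf/lf, so both groups were uneven, and their median log2 fold change of 0.24 was 1.89 without J1 lf/lf replicate 1 and -0.84 without J17a replicate 3.

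**Figure D5:**
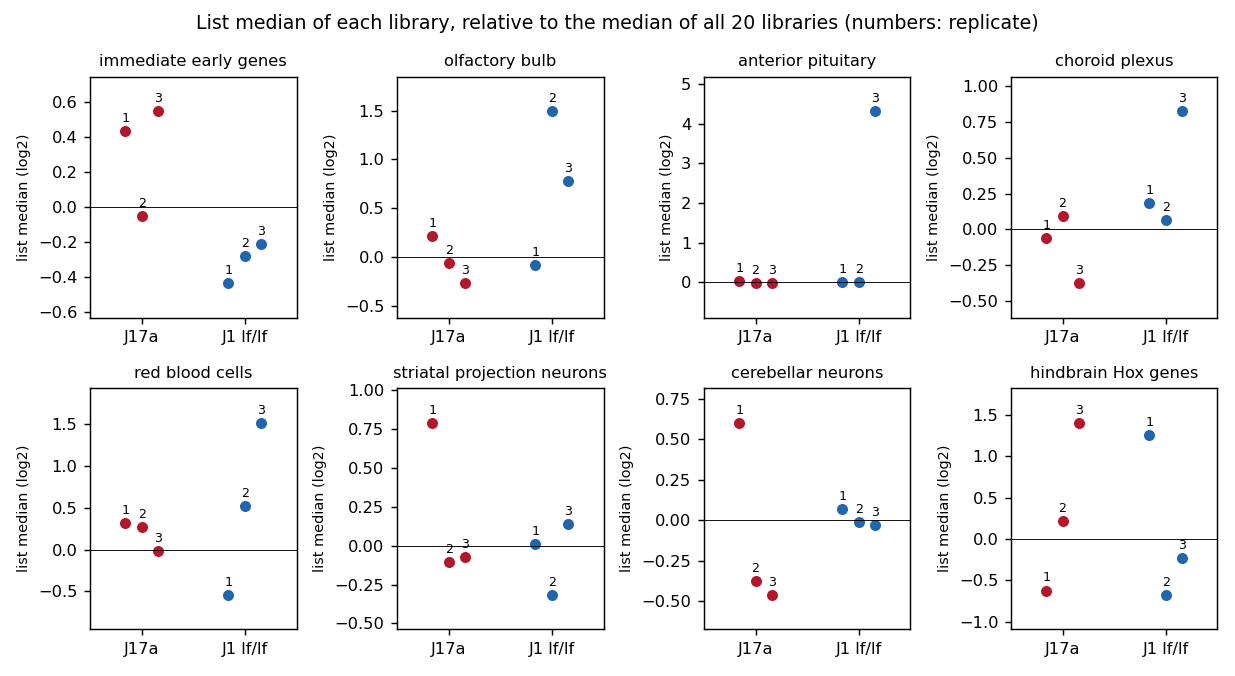
Median of 8 gene lists in each J17a (red) and J1 lf/lf (blue) library, in log2 units relative to the median of the 20 libraries, with replicate numbers above the points. Olfactory bulb, pituitary, choroid plexus and red blood cell lists are high in J1 lf/lf replicates 2 or 3, and striatal and cerebellar lists in J17a replicate 1.

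Other neuronal and housekeeping lists held separated genes on both sides. Of 9 monoaminergic genes 7 were positive (median 0.47). The 1 with an unadjusted p under 0.05 was Slc6a4, the serotonin transporter of raphe neurons, beside 3.28% of all genes higher in J17a. The median was 0.18 without J17a replicate 2, 0.27 without J17a replicate 3, 0.23 without J1 lf/lf replicate 1 and 0.73 without J1 lf/lf replicate 3. Slc6a4 had 4.29, 8.32 and 11.2 CPM in J17a, against 1.06, 2.41 and 5.34 CPM in J1 lf/lf, with overlap between J17a replicate 1 and J1 lf/lf replicate 3. Of 8 cholinergic genes 5 were positive (median 0.36), led by the vesicular transporter Slc18a3 (0.77) and the choline transporter Slc5a7 (0.61), and the median was 0.15 without J17a replicate 1. GABAergic interneuron genes had 3 of 12 positive (median -0.11). Reln (-0.29) and Dlx1 (-0.51) were the 2 with an unadjusted p under 0.05, beside 3.26% of all genes lower in J17a. Dlx1 had 12.6, 15.3 and 15.2 CPM in J17a, against 12.7, 27.5 and 20.8 CPM in J1 lf/lf, high in the same J1 lf/lf replicates 2 and 3 as the olfactory genes. Of 14 cortical and hippocampal excitatory neuron genes (median 0.05), 3 were higher in J17a without overlap (Cux2, Fezf2 and Camk2a) and 1 lower (Emx1), beside 6.08% and 5.8% of all genes. The 17 genes of glutamate and GABA receptors and their scaffolds had a median of 0.04. Of these, 3 were higher without overlap (Grin2b, Dlg4 and Homer1) and 1 was lower, beside 6.08% and 5.8% of all genes. Homer1, a postsynaptic scaffold, had 187, 190.3 and 194 CPM in J17a, against 175, 160 and 138 CPM in J1 lf/lf (log2 fold change 0.27). The medians of thalamic genes (-0.01), hypothalamic genes (0.06) and the respiratory chain (-0.02) lay near 0. Interferon response genes had 2 of 13 positive (median -0.12). Ifit1 (-0.44) and Ifit3 (-0.27) were the 2 with an unadjusted p under 0.05, beside 3.26% of all genes lower in J17a. Meningeal genes had 0 of 10 positive (median -0.13) and ependymal genes 1 of 7 (-0.13), none of them with an unadjusted p under 0.05. Relative to the median library, the meningeal medians were 0.0013, 0.08 and 0.05 in J17a, against -0.10, 0.30 and 0.36 in J1 lf/lf. No member of these lists was called over all genes.

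Rn45s, the ribosomal RNA precursor, and Lars2, the mitochondrial leucyl-tRNA synthetase, had large differences that divided the J17a libraries. Rn45s had 6560, 18290 and 17320 CPM in J17a, against 3066, 3571 and 5311 CPM in J1 lf/lf (log2 fold change 1.82, SE 0.40, adjusted p = 0.299). Lars2 had 190, 399 and 364 CPM in J17a, against 81.2, 125 and 132 CPM in J1 lf/lf (log2 fold change 1.49, adjusted p = 0.334). In both, J17a replicate 1 lay nearer to J1 lf/lf than to the other J17a libraries. The J17a titles carry the numbers 10, 11 and 12, and those of J1 lf/lf 4, 5 and 6. Every library of the series with a number above 10 had at least 17320 CPM of Rn45s, in J17b, J27a and J27b as well. With a term for a number above 10, which rests on J17a replicate 1 for this comparison, Rn45s was at 0.72 and Lars2 at 0.75, both still positive, and edgeR called 0 genes. The labels do not say what the title number stands for, and within numbers up to 10 the groups have 1 and 3 libraries. For Rn45s the title number and the line cannot be told apart beyond that 1 library.

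The J17a difference was then set against the matching difference for JNK2, J27a minus J2 lf/lf, which shares no library with it. The difference between these 2 differences was called in 5 genes, or 0.0311% of those tested. Ide had a log2 difference of differences of 0.84 (SE 0.13, adjusted p = 0.0209), with 82.7 to 88.3 CPM in J27a, against 81.2, 111 and 110 CPM in J2 lf/lf (log2 fold change -0.23). Trib2 had one of 0.58 (SE 0.10, adjusted p = 0.0282), with 42.5, 45.0 and 45.0 CPM in J27a, against 51.1, 50.6 and 52.2 CPM in J2 lf/lf. For both, J17a was above J1 lf/lf, while J27a did not lie above J2 lf/lf in the mean. Sox8, a transcription factor of the oligodendrocyte lineage, had one of 0.76 (adjusted p = 0.0231), from 49.9, 50.9 and 50.8 CPM in J17a, against 42.4, 37.6 and 39.6 CPM in J1 lf/lf, and from 40.5, 38.8 and 39.4 CPM in J27a, against 47.4, 54.6 and 55.9 CPM in J2 lf/lf. Within J17a against J1 lf/lf alone Sox8 was not called (log2 fold change 0.34, adjusted p = 0.334). The other 2 genes were Gt(ROSA)26Sor, whose values stand apart in J2 lf/lf, and Pkd2l1. For Pkd2l1 the log2 fold change was -0.68 in J17a over J1 lf/lf and 1.70 in J27a over J2 lf/lf, so both differences contributed. Gt(ROSA)26Sor, the noncoding Rosa26 transcript, had 6.18, 6.61 and 5.04 CPM in J17a, against 5.23, 5.83 and 5.83 CPM in J1 lf/lf, and was at 0.0825 to 0.31 CPM in J2 lf/lf. Rn45s and Lars2 had differences of differences of -0.20 and 0.01, since both were higher in J27a than in J2 lf/lf too. J27a against J2 lf/lf by itself gave 1 called gene, or 0.00623%.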

How the data were processed

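Estimated counts per gene and TPM, deposited by the authors, come from cutadapt and RSEM with mm10 as the build, as the submitters' processing notes list them. Libraries were poly(A)-enriched and read in pairs on a NovaSeq6000, per the labels' protocols. Versions, annotation and strand setting are not given in the sources used, so overlapping, antisense and near-identical genes are uncertain. RSEM divides shared reads, and 4.11% of the counts were not whole. They were rounded.

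Totals of the 6 libraries ran from 21395041 to 29941793, and more deeply counted genes have smaller error. Replicates differed by more than sampling noise, and each counted once. The table held 23845 genes. In edgeR 4.0.16 (R 4.3.3), TMM factors, the filterByExpr filter (16063 genes) and robust quasi-likelihood fits took all 20 libraries in 1 fit with a mean per group (biological coefficient of variation 0.12). Tests were two-sided, with Benjamini-Hochberg adjustment over all genes and a threshold of 0.05. Values are CPM with TMM factors. Library medians of lists used log2(CPM + 0.5). Alternatives were DESeq2 1.42.0 (size factors, Wald test), no filter, the compared groups only, the replicate number as a block, limma 3.58.1 on log2(TPM + 1) and log2(TPM + 0.1), each replicate left out, a term for a title number above 10, and Rn45s left out. Chosen after seeing the data were omission of 3 pituitary-rich libraries and fits without robust estimation. The scripts were tested on simulated counts.

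The comparison, gene lists and tests were chosen with earlier results of these data known. Named were every called gene, the 12 largest differences and 10 smallest p-values in each direction among genes without overlap whose mean logCPM reached 1, the genes called in the difference of differences, Mapk8, Mapk9, Mapk10, Ide, Btaf1, Rn45s and Gt(ROSA)26Sor, and list members. Shisa3, Cpeb3 and March5 aside, which examples were taken from the lists was decided with their values known. Positions come from GENCODE mouse release 21 and promoters from RefSeq.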

Additional observations from a re-analysis of the deposited data

Results flagged for a closer look

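The J17a minus J1 lf/lf difference and the J27a minus J2 lf/lf difference were unequal in 5 genes by edgeR's test of the difference between them (adjusted p under 0.05). On the log2 scale this difference was -4.87 for Gt(ROSA)26Sor (adjusted p = 3.53e-08), 0.84 for Ide (0.0209), 0.76 for Sox8 (0.0231), -2.38 for Pkd2l1 (0.0231) and 0.58 for Trib2 (0.0282). Pkd2l1, an ion channel of cerebrospinal fluid-contacting neurons, had 1.26, 2.33 and 2.06 CPM in J17a, against 2.82, 3.25 and 2.98 CPM in J1 lf/lf, and 2.48, 4.38 and 4.19 CPM in J27a, against 1.13, 1.11 and 1.15 CPM in J2 lf/lf. Gt(ROSA)26Sor had 5.44 to 7.14 CPM in J27a, against 0.0825 to 0.31 CPM in J2 lf/lf. Over 19 alternatives, Gt(ROSA)26Sor was past the threshold in 19, Sox8 in 11, Ide in 10, Pkd2l1 in 9 and Trib2 in 8, and none of the 5 changed sign.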

How the results depend on the processing

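For J17a against J1 lf/lf the fit over all libraries called 1 gene. DESeq2 size factors, no filter and Rn45s left out gave 1 as well. The DESeq2 Wald test called 31 (18 higher and 13 lower in J17a) and the compared groups alone 8. Both limma fits and omission of the pituitary-rich libraries gave 0, with 1016, 1033 and 766 genes at an unadjusted p under 0.05. With the term for a title number above 10 the comparison rests on J17a replicate 1, so effect sizes are given below. Fits without robust estimation gave 2. Leaving out single replicates gave 0 to 14: 14 without J1 lf/lf replicate 1, 2 without J17a replicate 1 and 0 without each of the others, with 773 to 1054 genes at an unadjusted p under 0.05. The replicate block called 2 genes over all libraries (Ide and Shisa3) and 7 over the 2 groups. Same-numbered J17a and J1 lf/lf libraries had correlations of -0.20, -0.04 and -0.04 in their deviations from the group means. Pairs with unlike numbers ran from -0.167 to 0.201. No pairing by number was seen, but the labels do not explain the numbers, and these correlations cannot exclude a pairing. The difference of differences, called in 5 genes, was called in 48 with the DESeq2 Wald test, in 14 with the 4 groups alone, in 2 and 2 with limma, and in 1 to 9 with single replicates left out. Mapk10 turned from 0.09 to -0.018 with the term for a title number above 10, and Gt(ROSA)26Sor from 0.08 to -0.0012 without J17a replicate 2 (range -0.0012 to 0.18 with single replicates left out). The cause of these changes was not tested, and fewer libraries or groups in a fit leave fewer degrees of freedom.

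Medians of lists moved with the term for a title number above 10, which rests on J17a replicate 1, to 0.15 (kinases upstream of JNK), -0.041 (cytoskeleton), 0.16 (thyroid), -0.089 (cholesterol), 0.20 (glucocorticoid), 0.081 (clock), -0.31 (myelin), -0.19 (oligodendrocyte precursors), -0.041 (microglia), -0.0032 (endothelium), -0.41 (ependyma), -0.0059 (interneurons), 0.89 (striatum), 0.60 (cerebellum), -0.32 (monoaminergic), -2.01 (Hox), 0.13 (receptors) and 0.023 (Ide neighbours). Without the pituitary-rich libraries they were 0.052 (thyroid), 0.14 (microglia), 0.070 (ependyma), 0.39 (pituitary), -0.24 (olfactory bulb) and -0.027 (receptors). Limma gave 0.056 and 0.056 (thyroid) and -1.80 and -2.35 (pituitary), and the replicate block over the 2 groups -4.85 (pituitary) and -0.19 (olfactory bulb). With single replicates left out, the ranges were 0.025 to 0.11 (kinases upstream of JNK), 0.033 to 0.11 (insulin), 0.035 to 0.095 (thyroid), 0.074 to 0.14 (ER chaperones), 0.0054 to 0.14 (microglia), 0.0090 to 0.19 (endothelium), -0.24 to 0.070 (ependyma), -8.05 to 0.57 (pituitary), -0.15 to -0.051 (interneurons), -0.034 to 0.53 (striatum), -0.43 to 0.19 (cerebellum), -1.28 to -0.063 (olfactory bulb), 0.15 to 0.39 (cholinergic), -0.84 to 1.89 (Hox), -0.027 to 0.071 (receptors), -0.061 to -0.0026 (respiratory chain) and -0.027 to 0.050 (Ide neighbours). Further such ranges were 0.018 to 0.17 (phosphatases), 0.18 to 0.73 (monoaminergic), -0.66 to -0.27 (choroid plexus), -0.82 to 0.11 (red blood cells), -0.099 to 0.034 (myelin), -0.19 to -0.050 (interferon), -0.26 to -0.072 (meninges), -0.16 to 0.18 (thalamus) and 0.45 to 0.70 (immediate early genes).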
